A study of Mus musculus with 18 samples.

Results

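The NOTCH1 pathway was described here through 8 genes measured in a mouse model of T-cell acute lymphoblastic leukemia, or T-ALL, a leukemia of immature T cells, with or without Acly. Acly encodes the enzyme ATP citrate lyase, a source of acetyl-CoA in the cytosol. The members are the receptors Notch1 and Notch3, the DNA-binding factor Rbpj, and 5 transcripts taken as direct targets, Hes1, Nrarp, Dtx1, Ptcra and Tspan2. They were found by gene symbol, as 8 of 18329 genes in a table of acute libraries and 8 of 18953 genes in a table of survival libraries. All 8 passed the filter on low values in both tables, among 14184 and 14286 genes tested.

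NOTCH1 is a cell-surface receptor that is cut by ADAM proteases and then by gamma-secretase when it binds a ligand on a neighbouring cell. The freed intracellular part enters the nucleus, binds RBPJ and a Mastermind coactivator, and turns on genes such as Hes1, Nrarp and Dtx1. Signalling through NOTCH1 commits progenitors to the T lineage in the thymus, and it is abnormally active in most T-ALL.

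RNA sequencing was done on leukemic spleens of C57BL/6 mice that had been irradiated and injected with T-ALL cells carrying a conditional Acly allele. The KO acute group (n = 4) had become overtly leukemic, received 3 mg of tamoxifen per mouse in corn oil, and was sampled 48 h later, while the WT acute group (n = 4) received corn oil alone on the same schedule. The KO survival first wave (n = 3), the KO survival second wave (n = 3) and the WT survival group (n = 4) received the same agents 48 h after the transplant and were sampled at the humane endpoint. Every group, WT included, carried the conditional allele, so KO and WT differ both in Acly and in exposure to tamoxifen, and these cannot be told apart. What distinguished the waves is not stated in the labels, nor which Cre was used, how the leukemia was started, whether an introduced NOTCH1 allele could add reads to Notch1, or whether a group's libraries represent separate mice or 1 primary leukemia. The p-values therefore measure the spread between these samples. The design text of the series names 5 samples for each genotype, while 10 KO and 8 WT libraries are listed and were used.

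Estimated depth was 6.1 to 9.4 M reads in the acute libraries and 7.9 to 12.7 M in the survival libraries. Acly averaged 733.3 ± 85.1 normalized counts in KO acute and 1256 ± 122 in WT acute (SD, n = 4 each), with a log2 fold change of -0.78 (limma adjusted p = 0.00266). In the survival table it averaged 727 ± 71.8 in the first wave and 576.3 ± 75.3 in the second wave (SD, n = 3 each), against 1697 ± 154 in WT (SD, n = 4). Some libraries stood apart. KO acute replicates 1 and 2 had 4.8% and 5.27% of their counts on mitochondrially encoded genes, against 2.35% and 2.7% in the other KO acute libraries and 3.5 to 3.69% in WT acute. In the survival table, WT replicates 1 and 2 lay at 78.6 and 67.2 on the first principal component (25.0% of the variance) and the other 8 libraries at -73.2 to 4.2, with second-wave replicate 1 at the low end. Some of the results that rest on these libraries are given with and without them.

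T-cell markers were abundant in every library. The 13 T-ALL and thymocyte markers, such as Cd3e, Lck, Rag1 and Dntt, made up 0.542 to 0.758% of the normalized total in KO acute and 0.689 to 0.857% in WT acute. In the survival libraries they made up 0.752 to 0.931% in the first wave and 0.559 to 0.675% in the second wave, against 0.415%, 0.47%, 0.785% and 0.834% in WT replicates 1 to 4. In such bulk samples, fewer cells of a type and less RNA per cell cannot be told apart.

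RBPJ binds DNA at a short core motif, which was looked up in the proximal promoters of the members. The core motif TGGGAA was searched on both strands (TTCCCA on the other strand) in the 250 bases upstream of each start in RefSeq on GRCm38.p6. The table matched 7 of the 8 members, with 9 windows, and Hes1 was not matched. The motif was in 3 of 9 windows (33.3%), against 7094 of 32851 windows of all genes (21.6%). The 2 Rbpj windows overlap and share a site, which is counted in both. By gene, 2 of 7 members held the motif in a window (28.6%), against 6510 of 27025 genes (24.1%). Ptcra and 1 of the Rbpj windows held 2 matches each, which 2.77% of all windows reach. The Ptcra window (chr17:46763713-46763962, minus strand) and that Rbpj window (chr5:53590096-53590345, plus strand) are shown for their matches. The Nrarp window (chr2:25180508-25180757, plus strand) and the Dtx1 window (chr5:120711670-120711919, minus strand) are shown as the windows of 2 further genes that were low together with Ptcra in WT survival replicates 1 and 2. Sequences run 5′ to 3′ on the gene's strand, with the motif in capitals.
Ptcra: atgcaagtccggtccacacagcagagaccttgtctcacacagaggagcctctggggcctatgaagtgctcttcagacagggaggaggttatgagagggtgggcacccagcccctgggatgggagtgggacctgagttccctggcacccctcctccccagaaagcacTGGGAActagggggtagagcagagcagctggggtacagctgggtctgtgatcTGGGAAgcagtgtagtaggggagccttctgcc
Rbpj: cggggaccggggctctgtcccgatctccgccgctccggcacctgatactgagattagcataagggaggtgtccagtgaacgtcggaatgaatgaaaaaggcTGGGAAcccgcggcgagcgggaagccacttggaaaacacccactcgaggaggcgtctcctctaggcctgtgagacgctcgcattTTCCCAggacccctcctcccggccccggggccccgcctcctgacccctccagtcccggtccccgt
Nrarp: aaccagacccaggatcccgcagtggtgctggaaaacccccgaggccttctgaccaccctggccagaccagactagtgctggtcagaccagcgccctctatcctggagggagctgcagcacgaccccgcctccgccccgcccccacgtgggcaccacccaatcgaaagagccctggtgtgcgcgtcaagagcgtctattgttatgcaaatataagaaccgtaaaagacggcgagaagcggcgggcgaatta
Dtx1: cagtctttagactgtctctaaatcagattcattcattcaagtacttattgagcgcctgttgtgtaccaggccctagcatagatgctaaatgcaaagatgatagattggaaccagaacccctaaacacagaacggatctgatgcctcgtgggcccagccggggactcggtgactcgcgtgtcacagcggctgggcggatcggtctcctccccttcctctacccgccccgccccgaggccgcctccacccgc
In Ptcra the matches begin 84 and 32 bases upstream of the start, both on the gene's strand. In Rbpj they begin 149 and 65 bases upstream, the second on the opposite strand. No match says only that these letters are not in this window.

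The acute comparison asks what had happened to the pathway 48 h after treatment of established leukemia. Notch1, Rbpj, Hes1 and Nrarp averaged 74.9 to 79.9% of WT in the KO acute libraries, while Notch3 and Dtx1 were near WT. None of the 8 members passed the threshold (limma, adjusted p under 0.05 over all genes tested), where 12.6% of all genes tested did. At an unadjusted p under 0.05 there were 4 of 8 members, against 28.1% of all genes. Of the 8 log2 fold changes 7 were negative, with a median of -0.27 over the members and 0.03 over all genes tested.

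Notch1 is a minus-strand gene of chromosome 2 (26457903 to 26516663, GRCm38). It had 10645.5, 10258.1, 14831.1 and 12440.7 normalized counts in KO acute replicates 1 to 4, against 13478.4, 14926.6, 16525.2 and 15841.1 in WT acute. KO replicates 1, 2 and 4 were below every WT library, and KO replicate 3 lay within the WT range. The means were 12044 ± 2087 in KO and 15193 ± 1317 in WT (SD, n = 4 each), 79.3% of WT. The log2 fold change was -0.35 (SE 0.12, 95% interval -0.60 to -0.09, limma adjusted p = 0.0696). The value was -0.45 without KO acute replicate 3, where it passed (adjusted p = 0.0177), and -0.16 without KO replicates 1 and 2 (adjusted p = 0.389). With quantile normalization it was -0.09 (adjusted p = 0.673).

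Notch3, a related receptor that is itself a target of NOTCH1 in T cells, is a minus-strand gene of chromosome 17 (32120820 to 32166852). It had 2646.1, 2120.3, 2349.3 and 2119.6 normalized counts in KO acute, against 2393.4, 1852.9, 2625.2 and 2714.4 in WT acute. The groups overlapped over nearly their whole range. The log2 fold change was -0.04 (95% interval -0.33 to 0.24, adjusted p = 0.861). Per kilobase of the longest annotated transcript, Notch1 averaged 1269 ± 220 normalized counts in KO and 1601 ± 139 in WT, and Notch3 averaged 288 ± 31.1 in KO and 299 ± 48.3 in WT (SD, n = 4 each). On this per-length scale Notch1 was the most abundant of the 8 members in every group of both tables.

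Rbpj, a plus-strand gene of chromosome 5 (53466152 to 53657362), encodes the factor through which all NOTCH receptors reach DNA. It had 1317.1, 1166.7, 1130.0 and 1387.3 normalized counts in KO acute, against 1485.2, 1610.7, 1462.1 and 1698.8 in WT acute. The KO values were all lower than the WT values. The means were 1250 ± 122 in KO and 1564 ± 111 in WT (SD, n = 4 each), and the log2 fold change was -0.33 (SE 0.12, adjusted p = 0.0799). With a trend over gene length, GC content and abundance taken out of each library it was -0.17.

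Among the targets, Nrarp encodes a small ankyrin-repeat protein that binds the NOTCH complex and limits it. It is a plus-strand gene of chromosome 2 (25180758 to 25183339). It had 570.6, 446.0, 434.2 and 487.6 normalized counts in KO acute, against 596.9, 631.1, 646.8 and 657.5 in WT acute. All KO libraries were again below all WT libraries. The means were 484.6 ± 61.8 in KO and 633.1 ± 26.5 in WT (SD, n = 4 each), and the log2 fold change was -0.39 (SE 0.14, 95% interval -0.69 to -0.10, adjusted p = 0.077). Without KO acute replicates 1 and 2 it was -0.46 (adjusted p = 0.0958). Nrarp and Rbpj were the 2 of 8 members with lower values and no overlap between groups, and 11.0% of all genes tested were lower without overlap.

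Hes1, a plus-strand gene of chromosome 16 (30064384 to 30067796), encodes a transcriptional repressor of the HES family. Its libraries had 324.1, 249.5, 201.8 and 338.2 normalized counts in KO acute, against 390.3, 321.9, 342.1 and 433.0 in WT acute. KO replicates 2 and 3 were below every WT library, and KO replicates 1 and 4 were just above the lowest. Hes1 had a log2 fold change of -0.44 (SE 0.19, adjusted p = 0.158).

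The other targets moved less in the acute libraries. Dtx1, which encodes a RING-type E3 ubiquitin ligase that acts on NOTCH signalling and is a minus-strand gene of chromosome 5 (120680202 to 120711927), had 1334.1, 1352.1, 1458.1 and 1598.7 normalized counts in KO acute, against 1384.0, 1290.5, 1675.2 and 1377.0 in WT acute. Ptcra, a minus-strand gene of chromosome 17 (46755663 to 46763712), encodes the invariant pre-T-cell receptor alpha chain. It had 802.1, 750.5, 915.8 and 858.6 in KO acute, against 804.0, 964.4, 1045.5 and 1046.8 in WT acute. Tspan2, a tetraspanin gene on the plus strand of chromosome 3 (102734529 to 102801513), had 1775.6, 1592.5, 1751.1 and 2027.5 in KO acute, against 1782.4, 2012.4, 1928.5 and 2144.6 in WT acute. All 3 genes had overlapping groups, with log2 fold changes of 0.01 for Dtx1 (95% interval -0.25 to 0.26, adjusted p = 0.975), -0.21 for Ptcra (adjusted p = 0.318) and -0.14 for Tspan2 (adjusted p = 0.443).

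**Figure D1:**
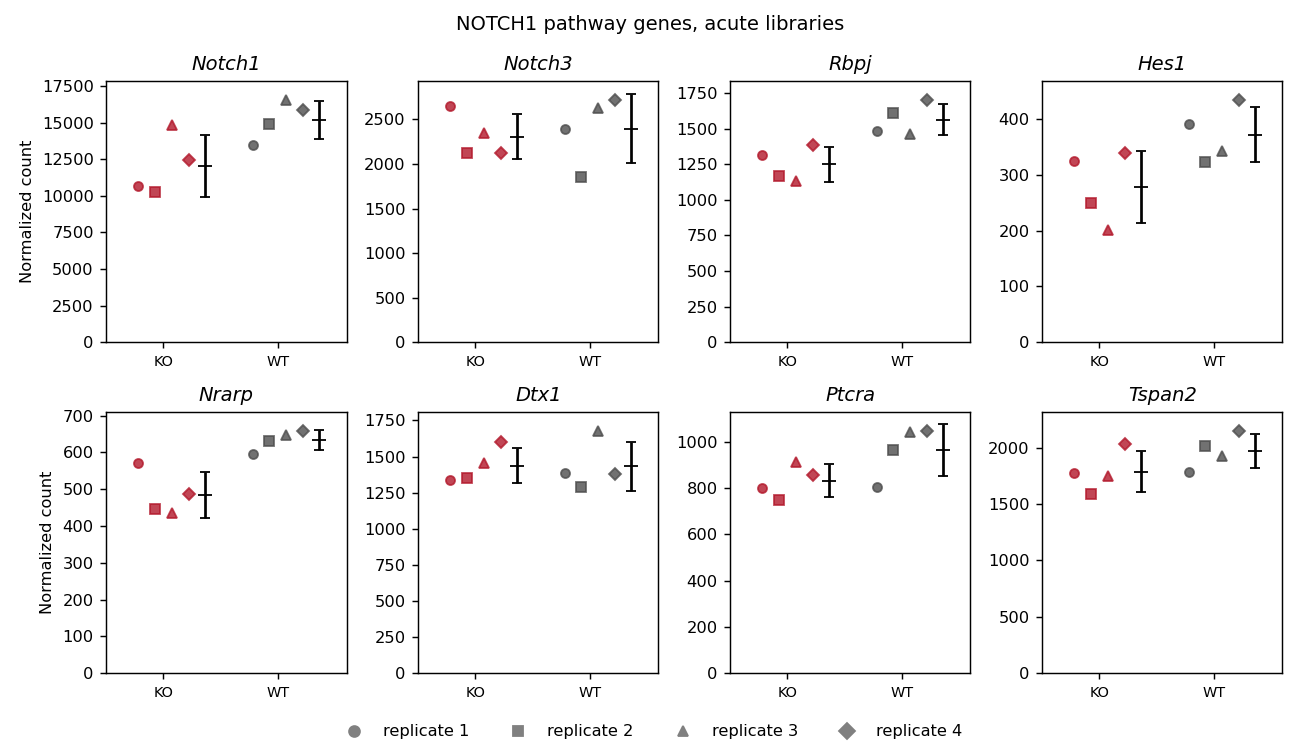
Normalized counts of the 8 members in each acute library (points, with the replicate shown by its shape), KO left of WT, with the mean and SD of each group as a bar; each panel has its own linear axis from 0. Nrarp and Rbpj show no overlap between groups, Notch1 overlaps through KO replicate 3 alone, and Dtx1 and Notch3 overlap widely.

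Beyond the members, 64 genes of the pathway in 9 lists were examined, of which 61 were in the acute table and 55 passed the filter. Of the 55, 3 rose and 4 fell, together 12.7%, close to the 12.6% of all genes tested (4.58% rose and 8.07% fell). The 4 ligand genes in the table, Dll1, Dll3, Jag1 and Jag2, had at most 38.3 normalized counts in any acute library and did not pass the filter. Of 11 further NOTCH1 targets in T cells, 1 rose and 3 fell. Of 10 genes of receptor cleavage, 1 fell. Of 7 coactivators 1 rose, and of 3 tested genes of the HES and HEY family 1 rose. None of 2 other receptors, 5 genes of receptor glycosylation, 8 corepressors and 9 genes of receptor turnover passed.

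Tcf7, which encodes the T-lineage transcription factor TCF-1, had 9138.3, 7560.9, 12187.3 and 12346.9 normalized counts in KO acute, against 19085.5, 19380.9, 18731.8 and 18584.8 in WT acute. The KO mean was 54.4% of WT (log2 fold change -0.91, SE 0.14, limma adjusted p = 0.00158). Il7r, the interleukin 7 receptor alpha chain, had 472.0, 693.8, 752.5 and 1030.4 in KO, against 1525.4, 1356.3, 1735.8 and 1558.9 in WT. Both genes fell with no overlap, and Il7r averaged 47.7% of WT (log2 fold change -1.11, adjusted p = 0.00308). Skp2, part of a ubiquitin ligase that degrades cell-cycle inhibitors, had 997.1, 1003.1, 1257.9 and 854.1 in KO, against 1470.7, 1497.7, 1278.9 and 1410.1 in WT. It fell by 0.47 on the log2 scale (adjusted p = 0.0322), a call that was lost under most alternatives.

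Ccnd3, which encodes cyclin D3, rose. It had 2147.5, 1862.1, 1969.8 and 1750.4 normalized counts in KO acute, against 1207.7, 1014.6, 1314.1 and 1239.0 in WT acute, 162% of WT (log2 fold change 0.70, SE 0.12, adjusted p = 0.003). Adam10 encodes the protease that makes the ligand-induced cut in NOTCH1. It had 1557.2, 1325.5, 1780.6 and 1653.7 in KO, against 2244.5, 2471.2, 2458.2 and 3268.8 in WT. It fell to 60.5% of WT in KO (log2 fold change -0.72, SE 0.14, adjusted p = 0.00481), with no overlap. Maml3, a Mastermind coactivator, had 387.4, 485.2, 377.7 and 375.2 in KO, against 231.7, 284.0, 248.0 and 237.7 in WT. Hes7, a HES family gene at low counts, had 62.0, 52.5, 27.6 and 26.6 in KO, against 11.6, 11.9, 6.8 and 8.5 in WT. Both rose, Maml3 by 0.69 (adjusted p = 0.0132) and Hes7 by 1.94 (adjusted p = 0.0187) on the log2 scale. Without KO acute replicates 1 and 2, Tcf7 (-0.63), Il7r (-0.80), Ccnd3 (0.64) and Adam10 (-0.59) still passed, and Hes7 (1.42), Maml3 (0.59) and Skp2 (-0.45) did not.

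In the lists with no gene past the threshold, the smallest p in the acute comparison belonged to Hdac1 (log2 fold change 0.39, adjusted p = 0.0685), a corepressor deacetylase, and to Mfng (0.60, adjusted p = 0.078), a fringe glycosyltransferase. In the remaining lists it belonged to Dtx3 (0.46, adjusted p = 0.181), of the Deltex family, and to the receptor gene Notch4 (-1.24, adjusted p = 0.254).

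**Figure D2:**
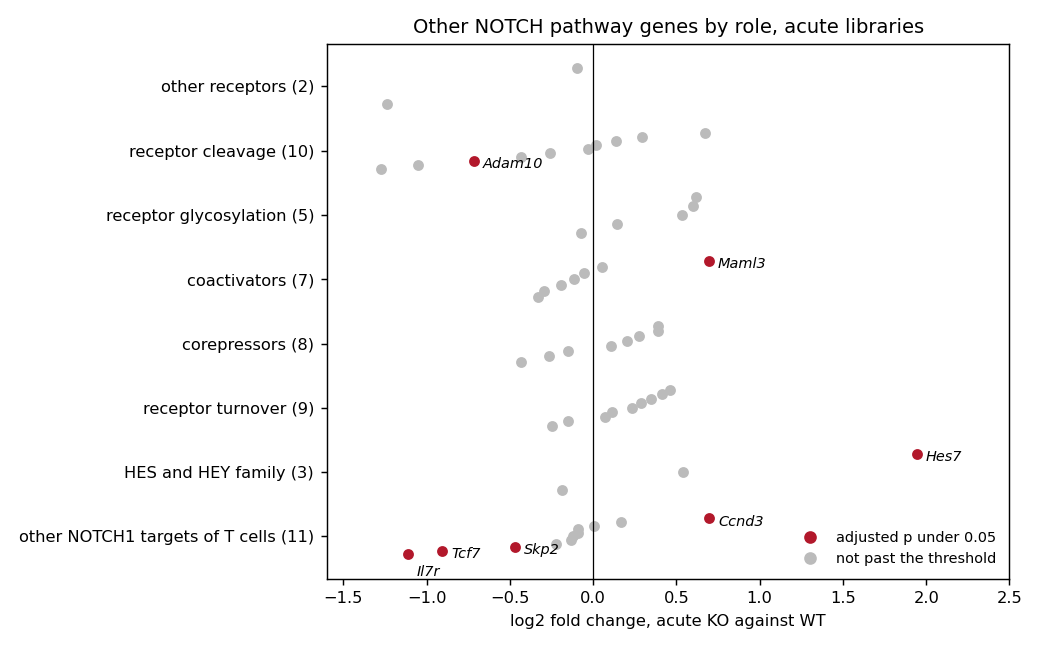
Log2 fold change of each tested gene of the other pathway lists in KO acute against WT acute, by role, with the number of genes tested in parentheses; red points passed an adjusted p of 0.05. The 7 called genes are named, with Il7r lowest at -1.11 and Hes7 highest at 1.94.

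Markers of cell types also differed in the acute libraries. Of the 13 T-ALL and thymocyte markers 1 rose (Cd4) and 4 fell (Cd3g, Dntt, Rag1 and Rag2), and 12 of 13 had negative log2 fold changes. The 5 called markers are 38.5% of the list, against 12.6% of all genes tested. The 10 neutrophil markers made up 0.0207 to 0.063% of the total in KO and 0.0102 to 0.0215% in WT. Log2 fold changes were positive in 10 of 10, of which 2 passed (20.0%), and none was at 0 in every library. The highest neutrophil shares, 0.0514% and 0.063%, belonged to KO replicates 1 and 2, the libraries that stood apart. Replicate 3 of KO had 0.0286%, still above every WT library. Replicate 4 of KO had 0.0207%, inside the WT range. The 10 erythroid markers made up 0.0742 to 0.19% in KO (median 0.0914%) and 0.126 to 0.206% in WT (median 0.175%), with negative log2 fold changes in 10 of 10, of which 2 passed (20.0%). The 10 B-cell markers made up 0.00653 to 0.0174% in KO and 0.00487 to 0.0107% in WT. Only replicate 2 of KO, with 0.0174%, exceeded the WT range. Replicates 1, 3 and 4 of KO had B-cell shares of 0.00653%, 0.00732% and 0.0104%, all inside that range. Log2 fold changes were positive in 9 of 9 tested B-cell markers, with a median of 0.705, and 0 passed. The 8 measured endothelium and stroma markers made up 0.0205 to 0.0228% in KO and 0.0138 to 0.0167% in WT. Of the 4 of them tested, 3 had positive and 1 a negative log2 fold change, and 1 passed (25.0%). Pecam1 had 1006.2, 1009.8, 855.1 and 898.6 normalized counts in KO, against 566.8, 680.6, 684.5 and 666.9 in WT. The part of these marker lists in the values of the members was not tested.

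The survival comparisons ask what the pathway looked like in leukemias that had grown out after early treatment. Both waves are set against the same 4 WT libraries, so their values are not independent. None of the 8 members passed the threshold in the first wave, where 0% of all genes tested did, in the second wave, where 0.224% did, or with both waves together, where 0.0210% did. At an unadjusted p under 0.05 there were 3 members in the first wave (8.02% of all genes), 2 in the second wave (13.0%) and 1 with both waves together (12.9%). The widest differences lay within WT: replicates 1 and 2 had lower Nrarp, Dtx1, Ptcra and Tspan2 than replicates 3 and 4. For these 4 of the 8 members they were the lowest of the 10 survival libraries, as they were for 12% of all genes tested. Notch3 was also lower in replicates 1 and 2 than in replicates 3 and 4. Hes1 went the other way, with 888.1 and 630.4 normalized counts in WT replicates 1 and 2, against 491.8 and 444.7 in replicates 3 and 4. For Notch1 and Rbpj the 2 pairs overlapped.

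The receptors and Rbpj differed little between the survival groups. Notch1 had 25906.2, 19516.7 and 17107.6 normalized counts in the first wave and 14751.1, 18495.7 and 19584.0 in the second wave, against 15805.3, 20263.4, 19228.2 and 17353.0 in WT. Notch3 had 3872.4, 3422.7 and 2792.7 in the first wave and 1842.0, 3269.0 and 2742.7 in the second wave, against 2228.6, 2894.8, 3044.4 and 3223.2 in WT. Rbpj had 2199.1, 1990.2 and 1794.7 in the first wave and 2408.0, 2001.1 and 2381.6 in the second wave, against 2583.6, 2055.4, 2130.0 and 1653.6 in WT. The groups overlapped for all 3 genes. The log2 fold changes against WT were 0.18 in the first wave and -0.05 in the second wave for Notch1, 0.24 and -0.15 for Notch3, and -0.07 and 0.12 for Rbpj. The 95% intervals of Notch1 were -0.17 to 0.53 in the first wave and -0.40 to 0.30 in the second wave, with adjusted p of 0.755 and 0.924.

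Hes1 was low in the second wave. It had 610.1, 566.8 and 659.0 normalized counts in the first wave and 326.4, 359.4 and 357.1 in the second wave, against 888.1, 630.4, 491.8 and 444.7 in WT. Each second-wave library was below each first-wave and each WT library, and the first wave lay within the WT range. The means were 612 ± 46.1 in the first wave and 347.6 ± 18.4 in the second wave (SD, n = 3 each), against 613.8 ± 199 in WT (SD, n = 4). The second wave was at 56.6% of WT, with a log2 fold change of -0.77 (SE 0.23, 95% interval -1.26 to -0.27, limma adjusted p = 0.202). The first wave had a log2 fold change of 0.05 against WT (adjusted p = 0.964). Without WT replicates 1 and 2 the second-wave value was -0.43 (adjusted p = 0.678).

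Nrarp was higher in both waves than in WT replicates 1 and 2. It had 1071.7, 828.6 and 860.7 normalized counts in the first wave and 921.2, 1247.8 and 944.7 in the second wave, against 216.7, 199.0, 863.6 and 705.3 in WT. All second-wave libraries were above all WT libraries, and first-wave replicates 2 and 3 were just below WT replicate 3. Against WT the log2 fold change was 1.18 in the first wave (SE 0.43, adjusted p = 0.617) and 1.35 in the second wave (SE 0.43, 95% interval 0.43 to 2.27, limma adjusted p = 0.221). Without WT replicates 1 and 2 these values were 0.23 in the first wave (adjusted p = 1) and 0.40 in the second wave (adjusted p = 0.696). With both waves together the value was 1.26 (adjusted p = 0.27), and it passed at 1.63 without WT replicate 3 (adjusted p = 0.0454). Of the 8 members, Nrarp was higher and Hes1 lower in the second wave than in WT with no overlap, and 5.04% of all genes tested were higher and 4.62% lower without overlap.

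Dtx1 had 2332.6, 1896.6 and 1880.3 normalized counts in the first wave and 1891.1, 1939.0 and 1930.2 in the second wave, against 1073.9, 1001.4, 2242.4 and 2393.0 in WT. WT replicates 1 and 2 were below every KO library, while WT replicate 4 was above every KO library. Dtx1 had a log2 fold change of 0.39 in the first wave (adjusted p = 0.69) and 0.31 in the second wave (adjusted p = 0.655). Without WT replicates 1 and 2 the sign turned, to -0.19 in the first wave and -0.27 in the second wave.

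Ptcra had 1596.4, 1234.5 and 1122.9 normalized counts in the first wave and 787.1, 1241.0 and 602.6 in the second wave, against 480.9, 553.9, 1059.9 and 1316.2 in WT. The first wave lay near WT replicates 3 and 4, and the second wave was spread between those and WT replicates 1 and 2. Against WT the log2 fold change was 0.74 in the first wave (SE 0.33, adjusted p = 0.617) and 0.10 in the second wave (adjusted p = 0.922). Without WT replicates 1 and 2 these were 0.14 in the first wave and -0.50 in the second wave (adjusted p = 0.707).

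Tspan2 separated the waves. It had 2854.2, 2746.2 and 3030.1 normalized counts in the first wave and 1387.1, 1891.7 and 1460.0 in the second wave, against 789.8, 917.3, 2632.5 and 2884.3 in WT. Every second-wave library was below every first-wave library, above WT replicates 1 and 2, and below WT replicates 3 and 4. The log2 fold change against WT was 0.91 in the first wave (SE 0.38, adjusted p = 0.617) and 0.03 in the second wave (95% interval -0.78 to 0.84, adjusted p = 0.983). Without WT replicates 1 and 2 these were 0.06 in the first wave and -0.82 in the second wave (adjusted p = 0.152).

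**Figure D3:**
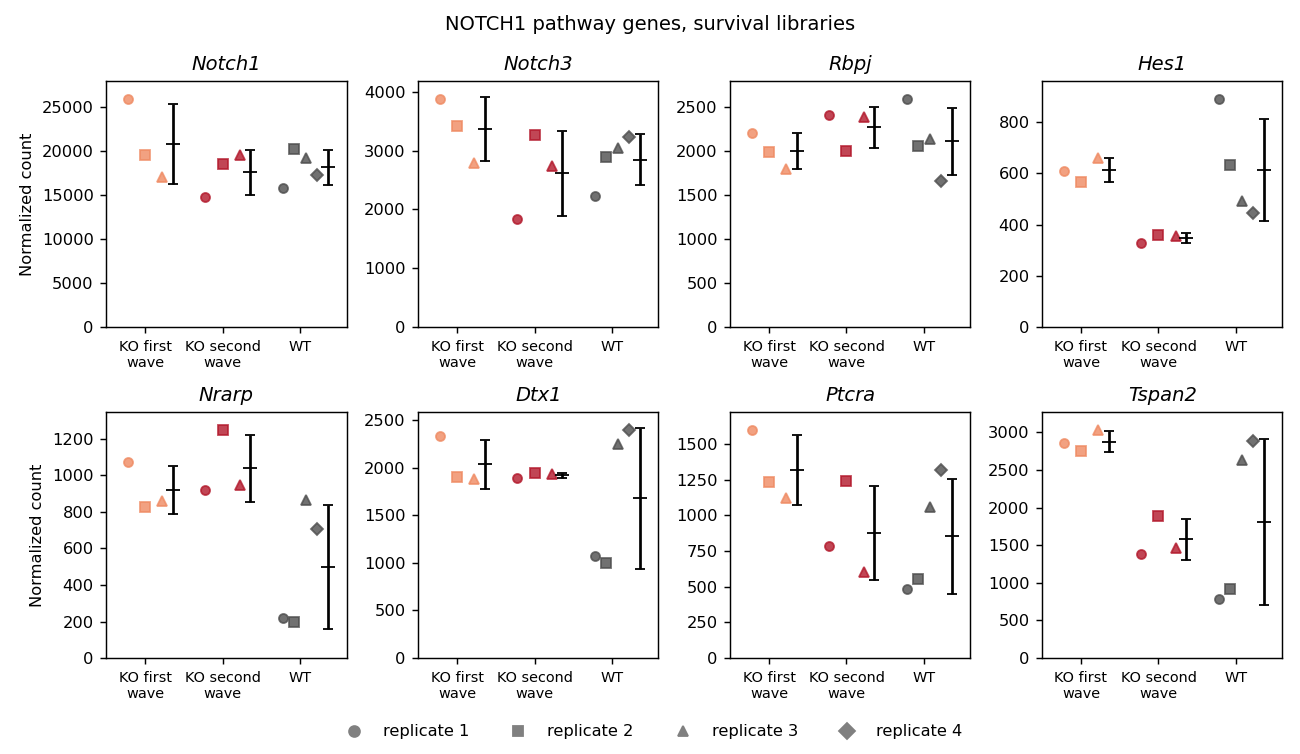
Normalized counts of the 8 members in each survival library (points, with the replicate shown by its shape), first wave and second wave left of WT, with the mean and SD of each group as a bar; each panel has its own linear axis from 0. WT replicates 1 and 2 lie low for Nrarp, Dtx1, Ptcra and Tspan2. For Hes1 they lie above WT replicates 3 and 4, and the second wave lies low.

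The same WT libraries differed in markers. Their T-ALL and thymocyte markers made up 0.415% and 0.47% of the normalized total, the lowest of the 10 survival libraries. The 10 neutrophil markers made up 0.00179 to 0.00303% in the first wave and 0.00209 to 0.0029% in the second wave, against 0.0159%, 0.00945%, 0.00191% and 0.00264% in WT replicates 1 to 4, so WT replicates 1 and 2 were the highest. Within the T-cell list, Bcl11b (2717.2 and 3162.0 normalized counts) and Rag2 (212.6 and 437.0) were low in WT replicates 1 and 2, against 7965.9 and 6736.3 for Bcl11b and 1145.2 and 1480.6 for Rag2 in WT replicates 3 and 4. Rag1, with the highest counts of the list, had 10603.9 and 12884.1 in WT replicates 1 and 2, against 28723.2 and 31476.6 in WT replicates 3 and 4. Dntt had 4112.4 and 3337.7, against 6371.0 and 6206.4. Cd8b1 (750.2 and 960.8, against 1494.6 and 1360.1) and Thy1 (5636.5 and 4384.2, against 7046.0 and 5780.5) were lower too. Lck (8472.6 and 8962.1) and Cd8a (4478.8 and 5187.0) in WT replicates 1 and 2 were closer to WT replicates 3 and 4, with 10505.3 and 10168.2 for Lck and 4807.9 and 4638.9 for Cd8a. The part of these marker differences in the values of Nrarp, Dtx1, Ptcra and Tspan2 was not tested.

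**Figure D4:**
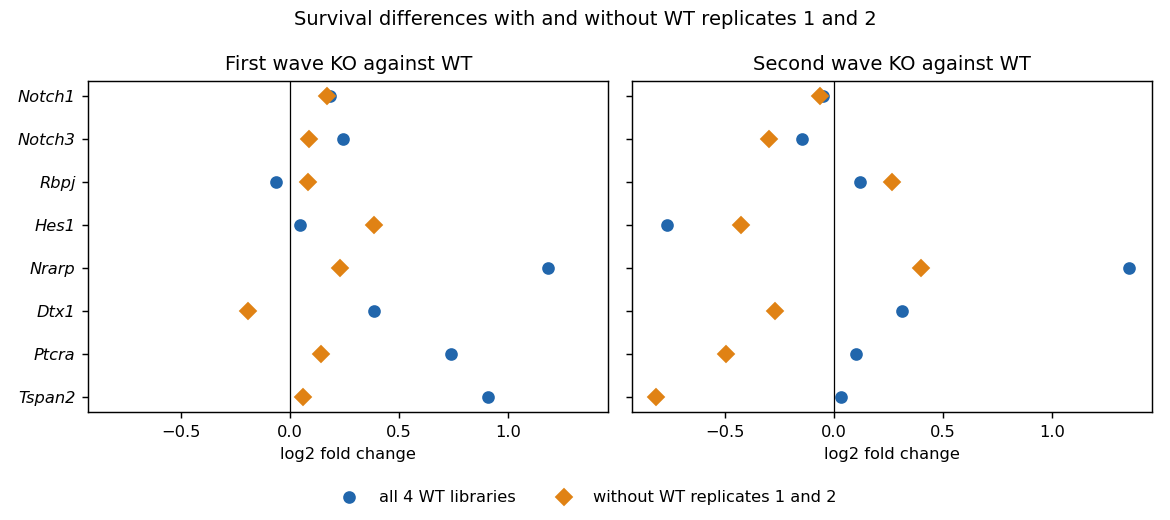
Log2 fold change of each member in the first wave and in the second wave against WT, with all 4 WT survival libraries and without WT replicates 1 and 2. Nrarp in the first wave has 1.18 with all WT libraries and 0.23 without these, and Tspan2 in the second wave has 0.03 and -0.82.

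The second wave was also set against the first wave directly. In this comparison WT enters only through the shared estimate of spread and the filter on low values. None of the 8 members passed, where 0.119% of all genes tested did, and 2 of 8 had an unadjusted p under 0.05, against 6.34% of all genes. Hes1 in the second wave was at 56.8% of its first-wave mean (log2 fold change -0.81, SE 0.25, 95% interval -1.34 to -0.28, limma adjusted p = 0.471). Tspan2 was at 54.9% (log2 fold change -0.88, SE 0.40, adjusted p = 0.784). These 2 members were lower in the second wave with no overlap, as were 7.29% of all genes tested. With WT replicates 1 and 2 left out of the fit, Tspan2 passed with the same fold change (adjusted p = 0.0436), and Hes1 did not (adjusted p = 0.103). In that fit 34 of 14201 genes passed, against 17 of 14286 with all libraries. With only the 2 waves in the fit and no WT library, no member passed, and 17 of 14160 genes did. WT replicates 1 and 2 had the lowest Tspan2 values of the survival libraries. Leaving them out does not change the fold change here. It changes the estimate of spread, the set of genes tested and so the adjustment. Without second-wave replicate 1, which stood apart, Hes1 was at -0.77 and Tspan2 at -0.79 between the waves, and against WT Hes1 was at -0.72 and Nrarp at 1.43, none past the threshold. The other members had log2 fold changes between the waves of -0.64 for Ptcra, -0.39 for Notch3, -0.23 for Notch1, -0.08 for Dtx1, 0.17 for Nrarp and 0.18 for Rbpj, none past the threshold. Notch3 was at -0.15 without second-wave replicate 1. The summed shares of 3 marker lists did not overlap between the waves either. T-ALL and thymocyte markers made up 0.559 to 0.675% in the second wave and 0.752 to 0.931% in the first wave. Of these 13 markers, 12 had negative log2 fold changes and 1 a positive one. The positive one, Thy1, had 8216.8, 7574.7 and 7379.2 normalized counts in the second wave, against 6733.1, 5912.2 and 6162.8 in the first wave. B-cell markers made up 0.00157 to 0.00337% in the second wave and 0.00395 to 0.00484% in the first wave, with negative log2 fold changes in all 8 tested. Endothelium and stroma markers made up 0.0208 to 0.0265% in the second wave and 0.0178 to 0.0207% in the first wave. Of the 6 tested in this last list, 4 had positive and 2 negative log2 fold changes. Col1a2 had 415.6, 71.1 and 303.5 normalized counts in the second wave, against 25.0, 11.1 and 28.8 in the first wave. Pecam1 had 882.2, 815.4 and 993.3 in the second wave, against 1092.1, 1042.0 and 890.5 in the first wave. The part of these lists in the values of the members was not tested.

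**Figure D5:**
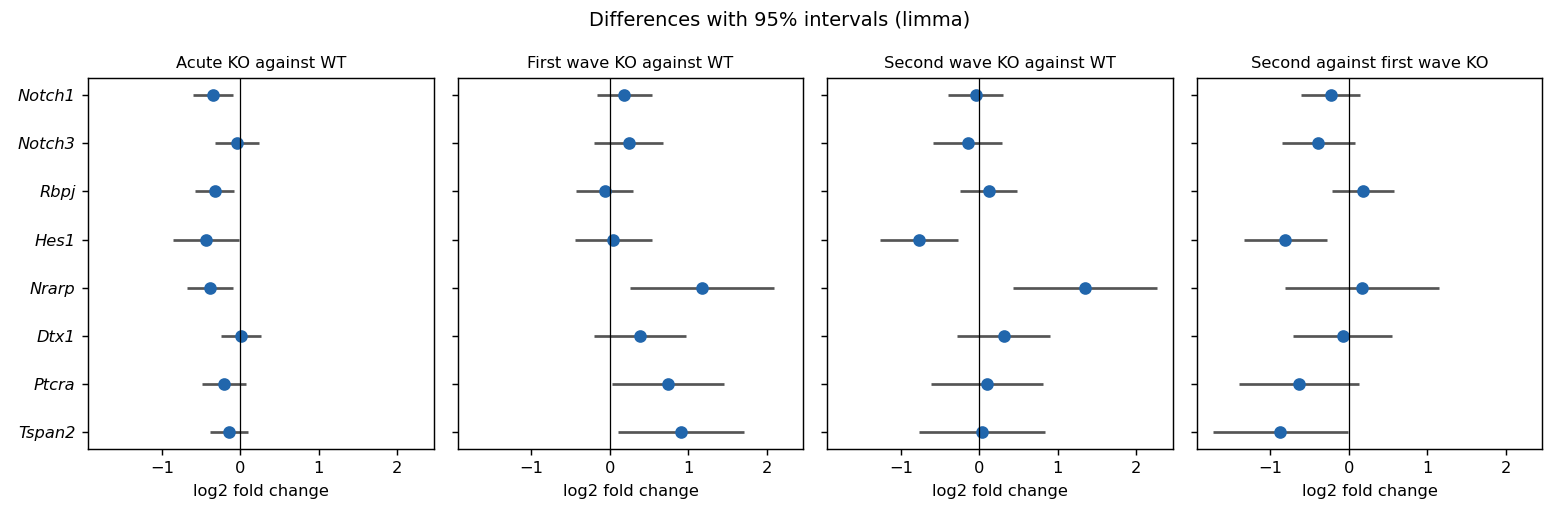
Log2 fold change (point) and 95% interval (line) of each member from limma in 4 comparisons, positive where the group named first is higher. The intervals lie within 0.9 of 0 in the acute panel and are wider for Nrarp, Ptcra and Tspan2 in the panels against WT survival.

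Of the other 64 pathway genes, all in the survival table, 58 were tested and none passed in any survival comparison (limma adjusted p under 0.05). At an unadjusted p under 0.05 there were 4 in the first wave (6.9% of the 58, against 8.02% of all genes tested), 9 in the second wave (15.5%, against 13.0%), 11 with both waves together (19%, against 12.9%) and 4 between the waves (6.9%, against 6.34%). Hes5, a HES family gene and NOTCH target, had 9.9, 13.8 and 9.3 normalized counts in the first wave and 27.2, 19.8 and 23.0 in the second wave, against 0.0, 0.6, 5.4 and 11.9 in WT. Its second-wave libraries were above all others, at a log2 fold change against WT of 2.84 (SE 0.94, adjusted p = 0.239), on counts near the filter.

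The smallest p of each list in the second wave against WT belonged to Dtx4 (-1.48), Igf1r (0.72), Kdm5a (-0.63), Adam10 (0.58), Notch2 (-0.45), Mfng (0.72), Kat2a (0.44), Dll3 (-1.87) and Hes5, with adjusted p of 0.232 to 0.513. In the first wave it belonged to Lef1 (0.49), Mfng (0.97), Maml3 (-0.55), L3mbtl3 (0.52), Jag1 (-1.76), Hes5 (1.81), Adam10 (0.35), Notch2 (-0.28) and Numb (-0.39), with adjusted p of 0.617 to 0.724. Between the waves Ccnd3 had 604.4, 769.0 and 868.6 normalized counts in the second wave, against 1330.8, 1447.9 and 1204.7 in the first wave (log2 fold change -0.84, adjusted p = 0.4). The other genes with the smallest p of a list between the waves were Maml2 (-0.85), Jag1 (2.41), Dtx4 (-1.12), Rfng (-0.62), Ctbp1 (0.35), Aph1c (0.83), Hes7 (-0.71) and Notch2 (-0.17). Without second-wave replicate 1, Hes7 was at -0.09 and Aph1c at -0.005.

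The genes whose profiles were most like those of Nrarp and Ptcra were named by the root mean square difference of standardized log2 values, in SD. Over the 8 acute libraries the closest to Nrarp were Gnpda1 (0.16), Spin4 (0.19) and Mettl4 (0.2), and to Ptcra Tsc22d2 (0.15), Jmy (0.16) and Trip12 (0.23). Over the 10 survival libraries the closest to Nrarp were Pum2, Irf2 and Echdc1 (0.16 each), and to Ptcra Ripor1 (0.23), Tenm1 (0.24) and Tm6sf1 (0.24). No gene was among the closest in both tables.

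Whether reads were counted by strand is not stated in the labels or the submitters' notes. In the annotation 6 of the 8 members, all but Hes1 and Dtx1, overlap another gene, for example Gm17276 antisense to Notch3 and Tspan2os at Tspan2, and reads of such genes could be counted to the member or lost from it.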

How the data were processed

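Strand-specific RNA-seq libraries were made from leukemic mouse spleens after red blood cell lysis, per the labels' protocols. Acute and survival libraries have a deposited table each. Its values (signal) are kallisto 0.44.0 read counts that the authors normalized by DESeq size factors, with GRCm38 as the build, per the submitters' processing notes. Sources used here do not give the DESeq version, the transcript annotation, the strand setting or the exons removed from Acly. Groups came from the sample titles. Each table has its own normalization, and no level or test spans both.

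Depth was estimated from the smallest steps between low values. Only 36.3 to 63.4% of low values were whole multiples of a step within 0.02, so the deposited values could not be turned back into reads for a count model. Genes averaging 10 or more were tested on the log2(value + 1) scale with limma 3.58.1 under R 4.3.3 (lmFit and eBayes, trend on), with Benjamini-Hochberg adjustment over all genes tested and a threshold of 0.05. This scale understates the fold change of low genes. The acute fit held 8 libraries, and the survival fit held 10 and gave 4 comparisons. On simulated counts in the acute design (13966 genes) the test found 20% of 1.5-fold changes and 58.6% of 2-fold changes. For the second wave against WT (14090 genes) it found 12.9% of 1.5-fold changes and 39.1% of 2-fold changes. Each share rests on a small random set of changed genes. Simulated libraries of a group were drawn alike, at the usual spread of genes of similar level. In the real data WT survival replicates 1 and 2 stood apart for genes such as Nrarp, Ptcra and Tspan2. The second-wave shares therefore do not give the recovery for such genes. The simulated acute counts held far fewer changed genes than the 1794 that passed in the acute data. With fewer changed genes the adjustment demands a smaller unadjusted p, so the acute shares do not give the recovery in the real acute data.

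The members and lists were chosen with earlier results of these data known. The text names all 8 members, Acly, each other pathway gene past the threshold, the gene with the smallest p of each list, and the 3 genes most like Nrarp and Ptcra. Markers named one by one were chosen after their values were seen. Coordinates and transcript lengths came from GENCODE M21 on GRCm38, and promoter sequences from RefSeq on GRCm38.p6. Alternatives changed the pseudocount, the filter, the eBayes setting, the scaling, the replicate block and the libraries in the fit.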

Additional observations from a re-analysis of the deposited data

How the results depend on the processing

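No member passed the threshold in any comparison as reported, and 1 passed under each of 4 alternatives: Notch1 in the acute comparison with robust eBayes (adjusted p = 0.0484) and without KO acute replicate 3, Nrarp with both waves together without WT survival replicate 3, and Tspan2 between the waves without WT survival replicates 1 and 2. The other pathway genes past the threshold in the acute comparison numbered 7, 5 to 7 with 1 library left out and 4 without KO acute replicates 1 and 2. Skp2 missed with eBayes without trend (adjusted p = 0.108), Adam10 likewise (adjusted p = 0.0519), Maml3 after removal of a trend over gene length, GC content and abundance (adjusted p = 0.073), and Hes7 without KO acute replicate 1 (adjusted p = 0.0676). Hdac1 passed with that trend removed (adjusted p = 0.0121). The causes were not tested.

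The signs of some values turned under alternatives. In the acute comparison Notch3 was 0.107 with quantile normalization, and Ptcra was 0.0628 and Tspan2 0.0892 with the trend removed. With both waves together Notch1 was -0.0225 with quantile normalization and -0.0341 with the trend removed, where Notch3 was -0.0103. Without WT survival replicates 1 and 2, the first wave had 0.0444 for Numb (-0.39 with all libraries), -0.193 for Dtx1 (0.39) and 0.0829 for Rbpj. The second wave then had -0.271 for Dtx1, -0.495 for Ptcra and -0.816 for Tspan2, and both waves together had -0.232 for Dtx1 (0.35 with all libraries), -0.105 for Notch3, -0.176 for Ptcra (0.42) and -0.378 for Tspan2 (0.47).

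With 1 library left out, the values whose sign turned ranged as follows. In the acute comparison Dtx1 ranged over -0.0456 to 0.0852 and Notch3 over -0.163 to 0.0206. In the first wave Hes1 ranged over -0.0909 to 0.241 and Rbpj over -0.175 to 0.0392. In the second wave Notch1 ranged over -0.13 to 0.074, Notch3 over -0.328 to 0.0861, Ptcra over -0.181 to 0.353 and Tspan2 over -0.287 to 0.335. With both waves together Notch1 ranged over -0.0166 to 0.133, Notch3 over -0.0667 to 0.163 and Rbpj over -0.0841 to 0.13. Between the waves Dtx1 ranged over -0.131 to 0.0239 and Aph1c over -0.00488 to 1.5. Members past the threshold numbered 0 to 1 in the acute comparison and with both waves together.

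Samples with the same replicate number in different groups had correlations of their deviations of -0.03 to 0.09. The sample titles do not say what the number stands for, so a pairing is not known. With the replicate number as a block, no member passed in any comparison, the other pathway genes past the threshold in the acute comparison numbered 6, and the genes past it between the waves numbered 2, against 17. Under this block Hes1 was -0.0909 in the first wave and Rbpj was -0.0841 with both waves together, the same values as without WT survival replicate 4. Number 4 occurs in WT alone among the survival libraries, so the block takes that library out of these estimates.

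Counts over all genes moved more. In the acute comparison 1794 genes passed (650 higher, 1144 lower), against 693 with eBayes without trend, 1160 with the trend removed (553 higher, 607 lower), 1578 with quantile normalization (746 higher, 832 lower), 983 without WT acute replicate 4, 1179 without WT acute replicate 2 and 903 without KO acute replicates 1 and 2 (232 higher, 671 lower). In the first wave 0 to 3 passed. In the second wave 32 passed, against 13 with only the groups compared in the fit, 14 with eBayes without trend, and 15 to 140 with 1 library left out, the most without WT replicate 3. With both waves together 3 passed, against 155 without WT replicate 3. Between the waves 17 passed, against 1 to 38 with 1 library left out and 34 without WT survival replicates 1 and 2.

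With 3 or 4 libraries a group, intervals of most members in the survival comparisons span changes in either direction, and a missed threshold does not show that values were alike.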

Other observations

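Of the 11 genes listed as other NOTCH1 targets of T cells, 7 (Myc, Il7r, Il2ra, Igf1r, Trib2, Lef1 and Tcf7) had their lowest values of the 10 survival libraries in WT survival replicates 1 and 2, and Gata3, Ccnd3, Skp2 and Shq1 did not. Over all genes tested, 12% had their lowest and 12.4% their highest values in these libraries. Among the members, Hes1 was higher in WT survival replicates 1 and 2 than in replicates 3 and 4. The genes below were picked with their values known, and no test is given. Il2ra, the interleukin 2 receptor alpha chain, had 11582.5, 11551.9 and 11604.7 normalized counts in the first wave and 6883.5, 8047.0 and 15680.4 in the second wave, against 2844.7, 3943.9, 12679.1 and 11359.5 in WT. Trib2, a pseudokinase gene, had 3448.3, 3040.7 and 3081.7 in the first wave and 2511.3, 2050.3 and 2589.4 in the second wave, against 1156.3, 1075.3, 4184.7 and 3266.1 in WT. Myc, a transcription factor that drives cell growth, had 1285.0, 1123.0 and 1092.4 in the first wave and 975.9, 1035.3 and 1544.3 in the second wave, against 496.0, 614.7, 1555.1 and 1126.5 in WT. Kdm5a, a histone demethylase of the corepressor list, ran the other way, with 6038.8, 6326.5 and 5041.7 in the first wave and 5079.2, 4613.2 and 5060.4 in the second wave, against 10765.9, 9756.9, 5612.8 and 5648.2 in WT.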
